A study of Homo sapiens with 4 samples.

Results

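The genes described here encode matrix metalloproteinases (MMP), ADAM and ADAMTS metalloproteinases, the plasminogen activators with their receptor, protease inhibitors and the enzymes and enhancers that trim procollagen. They are 51 genes named by a fixed list of symbols. The data assign at least 1 site to 41 of them, and to 20912 genes in all. RNA bound to PARP1, the ADP-ribose polymerase that responds to DNA breaks, was sequenced in 2 immunoprecipitations (IP 1 and IP 2) from HK-2 cells, an immortalised human kidney proximal tubule line. The series also has 2 inputs of the same cells, which were not analysed here, and no control IP. The IPs used a Flag antibody, and the labels name no construct, clone or treatment. Each value is a site, a single base of 1 strand at which sequenced tags carried a substitution, deletion or insertion, with the tags over it and the mutated tags. Of 166248 sites in IP 1 and 229782 in IP 2, 432 and 475 were assigned to the 51 genes, and 371 and 419 of those lay on the sense strand. These sense sites held 941 tags in IP 1 and 1034 in IP 2, with a median of 2 tags a site, so single sites rest on few tags. No label states that each IP had its own culture, so the spread between them may be technical. Intervals below are 95% exact intervals and cover counting error only.

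As a check of the label, 12 of 15 genes that mark proximal tubule or epithelium had a sense site in both IPs, with 108 and 147 sites summed, against 50.8% of all protein-coding genes with a site in both. For their span these 15 genes had a median percentile of 39.2 in IP 1 and 57.9 in IP 2, against 45.1 and 45.0 over all protein-coding genes. The apical peptidase ANPEP and the water channel AQP1 had no sense site in either IP. Of 7 fibroblast genes 1 (LUM) was named in both IPs, with 5 and 3 sites summed, and of 4 endothelial genes 2 were (PECAM1 and VWF), with 4 and 7. All 4 leukocyte genes had 0 sites. A list of mutated bases does not measure expression, and with the inputs not analysed the part that transcription of each gene plays in its sites was not tested.

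These proteins remodel the space around cells. Metalloproteinases use a catalytic zinc and are made as inactive proenzymes. MMPs cleave collagens and other matrix proteins, ADAMs shed the outer parts of membrane proteins such as growth factor precursors, and ADAMTS enzymes cut proteoglycans and procollagens. Urokinase and tissue plasminogen activator turn plasminogen into plasmin, TIMPs block metalloproteinases, and serpins trap serine proteases. In the kidney, the balance of these enzymes and inhibitors is studied for its part in tubulointerstitial fibrosis.

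Of the 51 genes, 41 had a sense site in at least 1 IP and 33 (64.7%, interval 50.1 to 77.6) had one in both. Over all 19922 protein-coding genes, 50.8% had a sense site in both IPs. No sense site in either IP was found for 10 of the 51, against 32.5% of protein-coding genes. Gene length moves with these counts. The 51 genes have a median span of 48.6 kb and the median of all protein-coding genes is 27.2 kb, and 15 of the 51 fall in the longest of 10 span bins, where 87.7% of protein-coding genes had a site in both IPs. Summed over the 51 genes there were 0.743 sense sites per 10 kb of span in IP 1 and 0.840 in IP 2. All protein-coding genes together had 0.766 and 0.924. Taken as a whole the list was therefore close to other genes in IP 1 and somewhat below them in IP 2, where the upper bound of its interval (0.761 to 0.924) equalled the value of all genes to 3 digits.

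The 6 protein groups differed in their density of sites. The MMP group was sparse, with 0.305 sense sites per 10 kb in IP 1 (interval 0.187 to 0.472) and 0.290 in IP 2 (0.175 to 0.453). ADAMTS genes had 0.568 (0.480 to 0.669) and 0.674 (0.577 to 0.782), and ADAM genes had 0.966 (0.808 to 1.15) and 1.08 (0.915 to 1.27). The plasminogen activators and their receptor had 1.84 (0.95 to 3.21) and 1.07 (0.431 to 2.21). The protease inhibitors had 2.01 (1.45 to 2.72) and 2.11 (1.53 to 2.83), and the procollagen-processing genes 1.498 (0.902 to 2.34) and 2.21 (1.47 to 3.19). In both IPs the intervals ran in the order MMP, ADAMTS, ADAM and protease inhibitors without touching. That separation depended on single genes. Without TIMP2 the intervals of the inhibitors (0.616 to 1.81 and 0.671 to 1.91) overlapped those of ADAM, and without ADAM12 those of ADAM (0.524 to 0.859 and 0.776 to 1.17) overlapped those of ADAMTS. The plasminogen and procollagen groups, of 3 genes each, overlapped the inhibitors. Relative to all protein-coding genes the mean ratio over the IPs was 0.356 ± 0.060 for MMP, 0.735 ± 0.0093 for ADAMTS and 1.22 ± 0.063 for ADAM (SD, n = 2). It was 1.78 ± 0.88 for the plasminogen group, 2.45 ± 0.24 for the inhibitors and 2.17 ± 0.31 for procollagen processing (SD, n = 2). No test was made between the groups, since both lists are PARP1 IPs. Gene length moves with the grouping, with a median span of 13.4 kb for MMP, 161.2 kb for ADAM, 180.0 kb for ADAMTS and 61.3 kb for the inhibitors. Ranked among protein-coding genes of similar span, the median percentile of the density was 31.4 and 29.9 for MMP (a rank that genes with 0 sites share), 38.1 and 43.3 for ADAMTS, 67.4 and 74.6 for ADAM and 85.6 and 78.0 for the inhibitors.

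**Figure D1:**
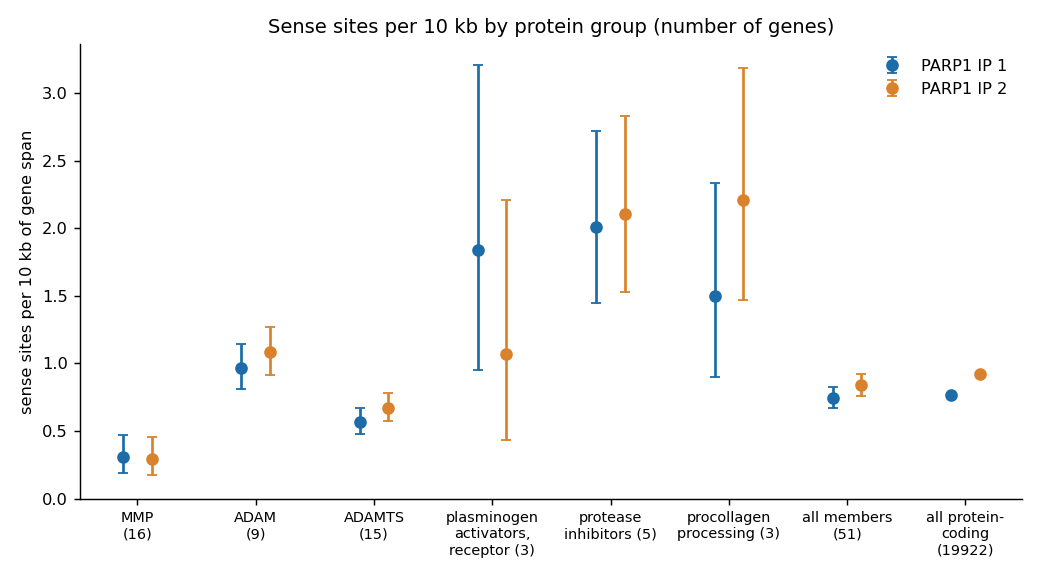
Sense sites per 10 kb of gene span (vertical axis) for the 6 protein groups, all 51 genes and all protein-coding genes, in IP 1 (blue) and IP 2 (orange). Points are sites summed over the group divided by its summed span, and bars are 95% exact Poisson intervals for counting error. MMP genes sit at 0.305 and 0.290 and the inhibitors at 2.01 and 2.11.

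Most sites lay in introns, for which no genomic sequence was at hand. Sequence is shown for sites inside an annotated transcript that were found in both IPs, and for some with 3 or more mutated tags. Sites of PCOLCE2, ADAM19, SERPINE2 and MMP15 are among those with 3 or more mutated tags that are not shown. Whether HK-2 cells differ from GRCh38 at these bases was not tested. Each line gives 29 bases of the sense strand from GENCODE release 29 transcripts (GRCh38), 5′ to 3′, with the listed base in capitals. The first 3 are the sites present in both IPs, and the others are a choice made after their tag counts were seen.
TIMP1, coding sequence, chrX:47585572-47585600, plus strand: actacctgcagtttTgtggctccctggaa
ADAM12, intron by the authors' annotation, chr10:126064776-126064804, minus strand: tacgtggccgccacAagctcggcatcagg
ADAM10, intron by the authors' annotation, chr15:58691212-58691240, minus strand: atggaggagagcaaCgtaaagtttgagaa
ADAM15, coding sequence, chr1:155058067-155058095, plus strand: ctttgcctccagacAgctaatactcgggg
ADAM15, coding sequence, chr1:155054452-155054480, plus strand: tgtacacactcagaAgccaccagagcacc
MMP14, coding sequence, chr14:22843371-22843399, plus strand: attttgtgctgcccGatgatgaccgccgg
TIMP2, 5′ untranslated region, chr17:78925335-78925363, minus strand: cgcggccgccgagaAccgcagcgccgctc
MMP24, 3′ untranslated region, chr20:35275816-35275844, plus strand: cccacactgctcttAgaaggacaccccta
ADAMTS7, coding sequence, chr15:78766567-78766595, minus strand: tccacgggtagcccCgtgcctgccacaga
ADAM10, coding sequence, chr15:58597550-58597578, minus strand: agagttatcaaatgGgacacatgagacgc
PLAUR, coding sequence, chr19:43652306-43652334, minus strand: gtgttacagctgcaAggggaacagcaccc
The TIMP1 site had 2 of 2 tags mutated in each IP. The ADAM12 site had 2 of 2 in IP 1 and 4 of 4 in IP 2, and the ADAM10 intronic site 2 of 2 in each. All the other sites shown were listed on the sense strand in IP 1 alone, except that of ADAMTS7, which was listed in IP 2 alone. HSP90AB4P and RN7SKP95 overlap ADAM10 on its strand, and RNA5SP328 overlaps ADAM12. Whether the intronic ADAM10 and ADAM12 bases shown lie in those genes was not tested.

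Among the MMPs, 5 of 16 genes had a sense site in both IPs and 7 had none. The secreted enzymes were nearly empty. The collagenases MMP1 and MMP13, the stromelysins MMP3, MMP10 and MMP11, and MMP19 and MMP28 had 0 sense sites in both IPs. For MMP28, the longest of these at 39.5 kb, the exact interval for 0 sites reaches 0.935 per 10 kb, and the one-sided limit of 3 sites is 0.760. The gelatinase MMP2 had 1 and 1 sense sites over 117 kb, MMP9 had 0 and 1, and the matrilysin MMP7 had 1 and 0. Together the 10 MMPs that are not membrane-type had 2 sites in each IP, or 0.0844 per 10 kb (interval 0.0102 to 0.305).

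The 6 membrane-type MMPs, which stay tethered to the cell surface, held nearly all the sites of the family. They had 18 and 17 sites, or 0.431 per 10 kb in IP 1 (interval 0.255 to 0.681) and 0.407 in IP 2 (0.237 to 0.652). MMP24 (chromosome 20, 35226654 to 35277000) had 8 and 4 sense sites, of which 4 and 1 lay in exons. MMP14, the membrane collagenase that activates MMP2 (chromosome 14, 22836557 to 22849027), had 4 and 2 over 12.5 kb, or 3.21 and 1.604 per 10 kb. Among protein-coding genes in the same span bin, that density was at percentile 90.8 in IP 1 and 73.7 in IP 2. MMP16, the longest at 296 kb, had 5 and 5, MMP17 had 1 and 3, MMP25 had 0 and 2 and MMP15 had 0 and 1. No MMP had a base listed in both IPs. At the coding site of MMP14 shown above, 6 of 6 tags were mutated.

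MMP1, MMP3, MMP7, MMP10 and MMP13 lie in a run on chromosome 11 (102520508 to 102955734). That stretch of 435227 bases held 5 sites of either strand in each IP, or 0.115 per 10 kb. The 500 kb on each side of the run held 81 and 76 sites, or 0.81 and 0.76 per 10 kb, so sites were fewer within the run than beside it in both IPs. For each of the 51 genes the same count beside the gene had a median of 0.62 and 0.86 per 10 kb.

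**Figure D2:**
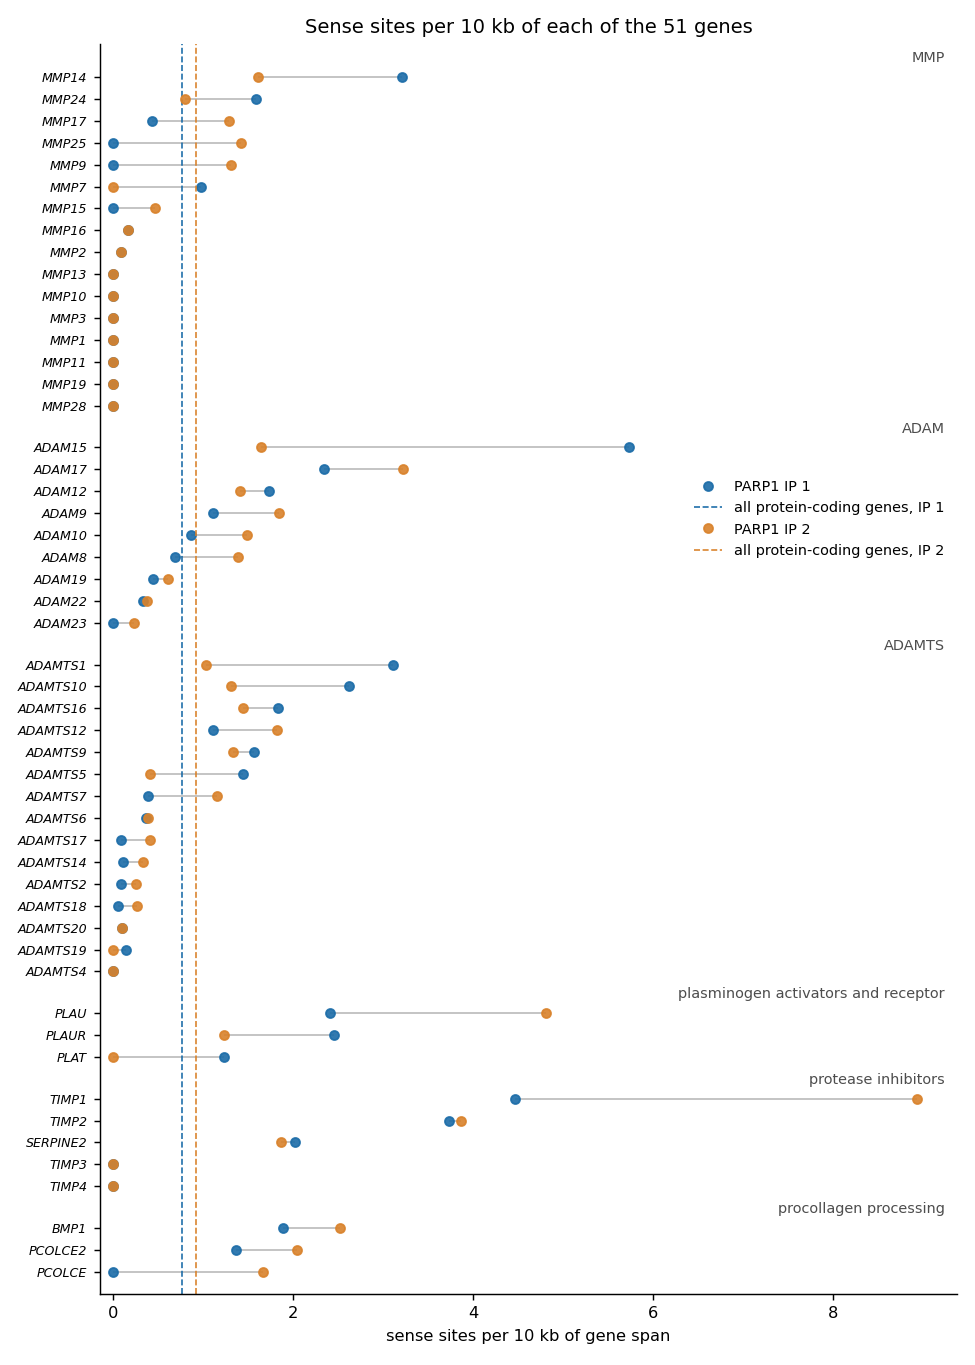
Sense sites per 10 kb of gene span (horizontal axis) for each of the 51 genes in IP 1 (blue) and IP 2 (orange), grouped by protein class and ordered by the mean of the IPs. Dashed lines mark all protein-coding genes (0.766 and 0.924). Most MMPs lie at or near 0, and TIMP1 at 4.47 and 8.93 is the farthest right in IP 2.

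All 9 ADAM genes had a site in at least 1 IP and 8 had one in both. ADAM12, a sheddase of heparin-binding EGF-like growth factor (chromosome 10, 126012381 to 126388455, minus strand), held 65 and 53 sense sites in IP 1 and IP 2. That is 1.73 per 10 kb (interval 1.33 to 2.20) and 1.41 (1.06 to 1.84). ADAM17, the TNF-converting enzyme (chromosome 2, 9488486 to 9556732, minus strand), had 16 and 22, or 2.34 and 3.22 per 10 kb. Its percentiles for span were 90.3 and 94.0, and it was the only ADAM above percentile 90 in both IPs. ADAM10, which sheds Notch and cadherins, had 14 and 24 sense sites (0.869 and 1.49 per 10 kb), and ADAM9 had 12 and 20 (1.11 and 1.85).

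The short gene ADAM15 (12.2 kb on chromosome 1, overlapped on its strand by DCST1) held 7 and 2. Its coding site with 9 of 9 tags mutated in IP 1 had the most mutated tags of any sense site in the 51 genes. ADAM19 had 8 and 11, with 5 further sense-strand sites in each IP inside its span not assigned to it. AC008676.3 overlaps it on the same strand, so the split between these genes is uncertain. ADAM8 had 1 and 2. ADAM22 and ADAM23, which lack a working protease site and act as neuronal receptors, had 9 and 10 sites over 269 kb and 0 and 4 over 178 kb. Their joint density was 0.202 per 10 kb in IP 1 (interval 0.0922 to 0.383) and 0.314 in IP 2 (0.171 to 0.526). The 7 proteolytic ADAMs had 1.34 (1.11 to 1.59) and 1.46 (1.22 to 1.72), so the intervals were apart in both IPs.

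Without ADAM12 the ADAM density was 0.676 and 0.959 per 10 kb and its mean ratio to all protein-coding genes was 0.960, against 1.22 with it. By IP the ratio was 0.882 and 1.04 without ADAM12, and the median percentile for span over the other 8 genes was 64.1 and 72.1.

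In the ADAMTS family 13 of 15 genes had a sense site in both IPs, and ADAMTS4 had none in either. The sites were concentrated in a few long genes. ADAMTS12, which cleaves cartilage oligomeric matrix protein (chromosome 5, 33523535 to 33892192, minus strand), had 41 and 67 sense sites, or 1.11 and 1.82 per 10 kb. ADAMTS16 (chromosome 5, 5140330 to 5320304), a gene linked to blood pressure in rats, had 33 and 26 (1.83 and 1.44 per 10 kb). ADAMTS9, a proteoglycanase that cuts versican and aggrecan (chromosome 3, 64515654 to 64688000, minus strand), had 27 and 23 (1.57 and 1.33 per 10 kb).

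The other 12 ADAMTS genes together had 0.244 per 10 kb in IP 1 (interval 0.178 to 0.326) and 0.309 in IP 2 (0.234 to 0.400). The 3 genes taken out were those with the most sites, so a lower density of the rest follows from that choice. It cannot be set against the uncut MMP group. ADAMTS6, of similar span to ADAMTS12, had 12 and 13 sites (0.360 and 0.390 per 10 kb). ADAMTS17 had 3 and 15, ADAMTS19 had 4 and 0, and ADAMTS18 had 1 and 5. The procollagen N-proteinases ADAMTS2 and ADAMTS14 had 2 and 6 sites over 235 kb and 1 and 3 over 89.6 kb. The proteoglycanases ADAMTS1 and ADAMTS5, neighbours on chromosome 21, had 3 and 1 and 7 and 2, and ADAMTS20 had 2 and 2. ADAMTS10 had 8 and 4 over 30.5 kb and ADAMTS7 had 2 and 6.

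Part of the ADAMTS12 count in IP 2 came from neighbouring bases. At 33638490 to 33638499 on chromosome 5, 10 consecutive bases were listed as deletions with 2 of 2 tags each. With sites of 1 gene within 100 bases counted once, ADAMTS12 had 37 and 44 clusters, ADAM12 had 57 and 44 and TIMP2 had 20 and 25. In the 51 genes 46.3% of deleted bases in IP 1 and 55.6% in IP 2 had a directly adjacent listed deletion, against 59.4% and 60.2% over all protein-coding genes.

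PLAU, the urokinase gene (chromosome 10, 73909177 to 73917497), had 2 and 4 sense sites over 8.32 kb, or 2.40 and 4.81 per 10 kb. That was at percentiles 86.0 and 95.4 for its span. All were intronic, and the strongest had 5 of 5 tags mutated in IP 2. PLAUR, the urokinase receptor (chromosome 19, 43646095 to 43670547, minus strand), had 6 and 3, of which 3 and 0 lay in exons. RN7SL368P overlaps PLAUR on the same strand, so the split of sites between these genes is uncertain. The intronic PLAUR sites at 43661459 and 43661465 in IP 1 lie in an annotated transcript of that strand. PLAT, the gene of tissue plasminogen activator, had 4 and 0 over 32.5 kb. None of these 3 genes had a base listed in both IPs, and their joint counts were 12 and 7.

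The inhibitors split into genes dense in sites and genes with none. TIMP2 (chromosome 17, 78852977 to 78925387, minus strand, overlapped on its strand by CEP295NL) held 27 and 28, or 3.73 (interval 2.46 to 5.43) and 3.87 (2.57 to 5.59) per 10 kb. Its percentiles for span were 98.2 and 97.2. TIMP1, a short gene (4.48 kb on chromosome X), had 2 and 4, or 4.47 (0.541 to 16.1) and 8.93 (2.43 to 22.9) per 10 kb, at percentiles 94.7 and 98.8. SERPINE2, which encodes protease nexin-1, an inhibitor of urokinase and thrombin (chromosome 2, 223975112 to 224039319, minus strand), had 13 and 12 sites, at percentiles 85.6 and 78.0. TIMP3, the TIMP that binds to the matrix, had no sense or antisense site over 61.3 kb, for which the exact interval reaches 0.601 sense sites per 10 kb and the one-sided limit of 3 sites is 0.489. TIMP4 also had none, over 6.30 kb.

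Besides ADAM17, TIMP1 and TIMP2 were the only ones of the 51 genes above percentile 90 in both IPs. That is 3 of 51, close to the 4.85% of protein-coding genes that were. The density of the inhibitors without TIMP2 was 1.10 and 1.17 per 10 kb, and their mean ratio to all protein-coding genes was 1.35 without that gene, against 2.45 with it.

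The strongest TIMP2 sites were unlike between the IPs. In IP 1, 9 sense sites had 3 or more mutated tags. Of these, 5 intronic sites had 7 of 7 tags mutated. A pair lay at 78881413 and 78881418, and a trio at 78911271, 78911363 and 78911379, so nearby sites may rest on the same tags. In IP 2, 3 sites had 3 or more mutated tags, the highest with 5 of 5. Of the trio, the base at 78911271 was also listed in IP 2, with 2 of 2 tags. The 5′ untranslated site shown above had 5 of 5 tags mutated on the sense strand in IP 1 and 4 of 4 on the antisense strand in IP 2. Whether the libraries keep the strand was not stated in the sources at hand. If they do not, reads of a gene and of a partner on the opposite strand cannot be told apart. That touches many of the genes, among them TIMP1, TIMP3 and TIMP4 (inside SYN1, SYN3 and SYN2) and ADAM17 (IAH1). PLAU (C10orf55), MMP9 (SLC12A5-AS1), MMP24 (MMP24OS), ADAMTS7 (MORF4L1) and ADAM19 (CYFIP2) are others with such a partner.

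BMP1, the procollagen C-proteinase (chromosome 8, 22164736 to 22212326), had 9 and 12 sense sites, or 1.89 and 2.52 per 10 kb, at percentiles 81.7 and 86.8. Of the genes for its enhancers, PCOLCE2 (chromosome 3, 142815922 to 142889206, minus strand) had 10 and 15 sites (1.36 and 2.05 per 10 kb), and PCOLCE had 0 and 1 over 6.00 kb. At that length the intervals of PCOLCE (0 to 6.15 and 0.0422 to 9.29) contained the densities of PCOLCE2. AC021074.1 overlaps PCOLCE2 on its strand and AC105206.1 overlaps BMP1, so the split of sites between these genes is uncertain. All 3 PCOLCE2 sites with 3 or more mutated tags in IP 1, at 142827536, 142827537 and 142827570, had 5 of 5 tags mutated. These bases are intronic by the authors' annotation but lie in an annotated transcript of that strand. Nearby sites may rest on the same tags.

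At the same base and strand, 29 sense sites were listed in both IPs, which is 7.82% of the IP 1 sites of the 51 genes and 6.92% of the IP 2 sites. For all protein-coding genes the shares were 4.95% and 4.11%. They fell in 12 of the 51 genes (23.5%), against 14.1% of all protein-coding genes. Longer genes have more sites that can be shared, and the median span was 48.6 kb for the 51 genes against 27.2 kb for all protein-coding genes. The share among genes of like length was not computed. ADAM12 held 9 of them, ADAMTS16 held 4, ADAMTS12 held 3, and ADAM17, ADAMTS17, TIMP1 and BMP1 held 2 each. ADAM10, ADAM19, ADAMTS9, TIMP2 and SERPINE2 held 1 each. All but 1 TIMP1 coding site were intronic by the authors' annotation, and 27 of 29 were substitutions in both IPs. Same-strand genes overlap ADAM10 (HSP90AB4P and RN7SKP95), and its shared base, inside an annotated transcript, may belong to 1 of them. At 28 of the 29 every tag was mutated in both IPs, and at all 29 the IP with fewer had 2 mutated tags. With the inputs not analysed, bases at which the cells' own sequence differs from GRCh38 cannot be told from other listed bases. Neighbouring shared bases are not independent: the ADAM17 pair lay at 9533143 and 9533150 and the BMP1 pair at 22168131 and 22168167. Of 633 clusters of sites in the 51 genes, 31 held sites of both IPs and 528 held a single site.

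**Figure D3:**
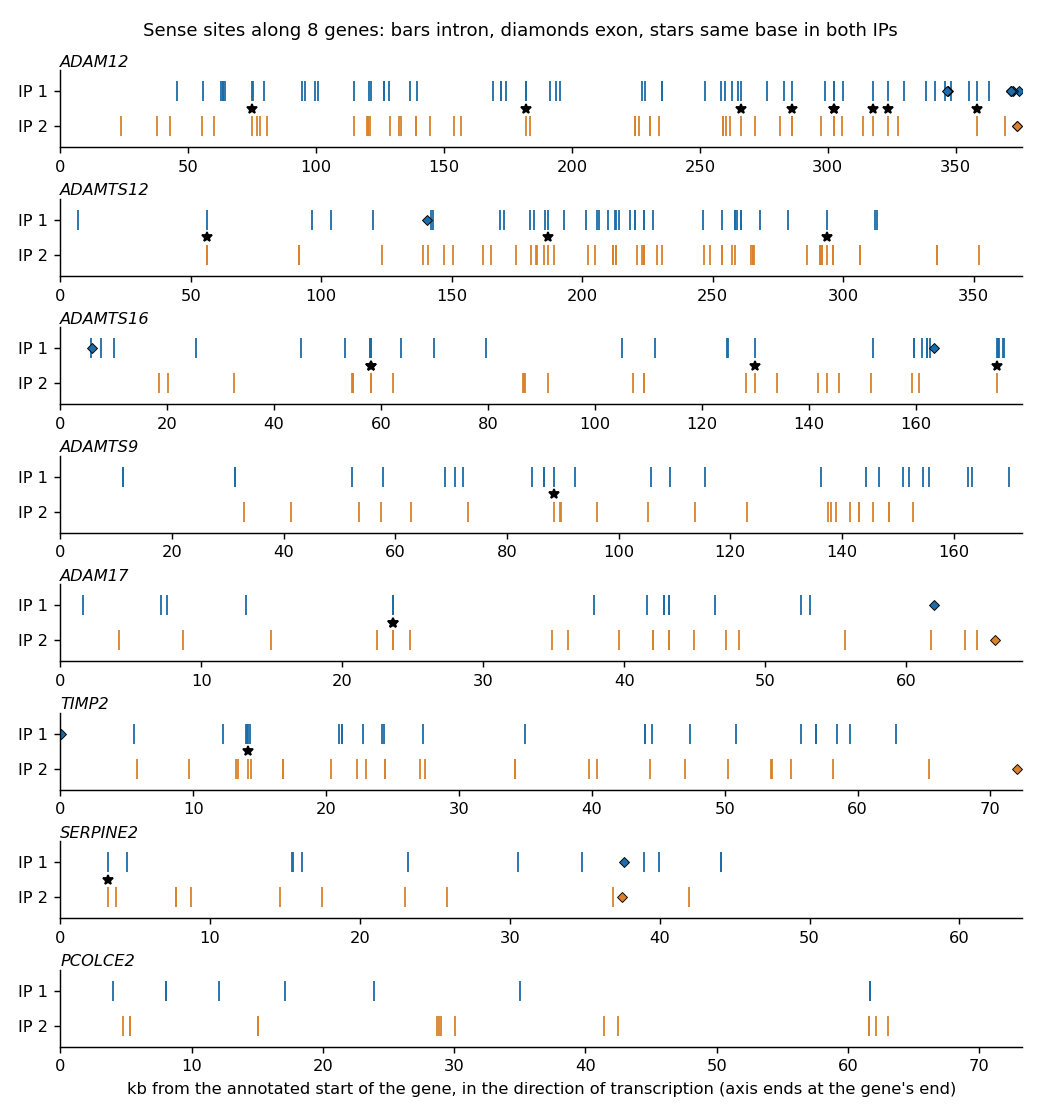
Sense sites along 8 genes with many sites, as distance in kb from the annotated gene start (horizontal axis) in IP 1 (blue, upper row) and IP 2 (orange, lower row). Vertical bars are intronic sites, diamonds exonic sites and stars bases listed in both IPs. ADAM12 carries 9 shared bases, most of them in the part far from its start, and ADAMTS12 sites crowd past its middle.

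Sites were spread along most of the genes. With each span cut into 5 equal parts from the start, the 51 genes together had 16.4%, 21.3%, 20.2%, 21.8% and 20.2% of their sites in IP 1. The shares were 13.1%, 21.0%, 20.3%, 27.7% and 17.9% in IP 2. ADAMTS12 was uneven, with 17 and 14 of its 41 sites in parts 3 and 4 in IP 1 and 17 and 34 of its 67 in IP 2. The 34 include the run of 10 deleted bases. All sites assigned to ADAM19 lay in the first 3 parts in both IPs. Its 3′ untranslated sites in IP 1 lay at 54.0% and 53.9% of the annotated span, so that span runs far past them. Sense-strand sites inside the span that were not assigned to ADAM19 are left out here.

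Exons held 43 of 371 sense sites of the 51 genes in IP 1 (11.6%, interval 8.52 to 15.3) and 21 of 419 in IP 2 (5.01%, 3.13 to 7.56). All protein-coding genes had 9.36% and 8.77%. The intervals of the 51 genes did not overlap between the IPs. Sites in 3′ untranslated regions numbered 23 (6.20%) and 8 (1.91%), coding sites 19 (5.12%) and 13 (3.10%), and 5′ untranslated sites 1 and 0. ADAM12 had 7 and 2 exonic sites, ADAM10 had 5 and 1, MMP24 had 4 and 1, and PLAUR, ADAMTS5 and ADAM15 had 3 and 0 each, while BMP1 had 0 and 3. The most deeply covered sense site of the 51 genes, in the 3′ untranslated region of TIMP2 in IP 2, had 14 tags of which 2 were mutated.

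Substitutions made up 76.3% of the sense sites of the 51 genes in IP 1 and 79.0% in IP 2, against 67.9% and 67.1% over all protein-coding genes. Deletions made up 18.1% and 15.04%, against 25.7% and 26.5%, and insertions 5.66% and 5.97%, against 6.43% and 6.35%. Every tag was mutated at 92.5% and 89.7% of the sense sites of the 51 genes, against 84.8% and 84.0%. Sites antisense to the 51 genes numbered 61 and 56, or 14.1% and 11.8% of all their sites, against 11.1% and 15.2% for all protein-coding genes. ADAM12 had 13 antisense sites in IP 1 and 3 in IP 2, and ADAMTS17 had more antisense than sense sites in IP 1 (7 and 3) but not in IP 2 (4 and 15).

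Some regions of the genome held more sites than others, so each gene was set against its own surroundings. Counting both strands, 21 of 51 genes had more sites per 10 kb inside than in the 500 kb on each side in both IPs, 22 had fewer in both, and 8 differed between the IPs. Of all protein-coding genes 35.6% had more in both and 40.7% fewer in both. Gene length moves with this count, as 26.0% and 31.9% of protein-coding genes had more in both in span bins 3 and 4, which hold 10 of the 16 MMPs, against 47.3% in the bin of the longest genes. Those with more in both included 5 of 9 ADAMs, 6 of 15 ADAMTS genes, 2 of 3 plasminogen genes, 3 of 5 inhibitors and 2 of 3 procollagen-processing genes, but 3 of 16 MMPs. TIMP2 had 4.14 inside and 0.88 around it in IP 1, then 4.28 inside and 1.42 around it in IP 2. For ADAM12 the inside held 2.07 against 0.62 around it (IP 1) and 1.49 against 1.02 (IP 2). For ADAMTS16 it held 2.11 against 0.45 (IP 1) and 1.94 against 0.7 (IP 2). TIMP3 held no site in surroundings with 0.31 in IP 1 and 0.43 in IP 2, and TIMP4 held none in surroundings with 0.61 and 0.81. MMP9 had 4 sites of either strand inside its span in each IP, of which 0 and 1 were assigned to it on the sense strand.

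**Figure D4:**
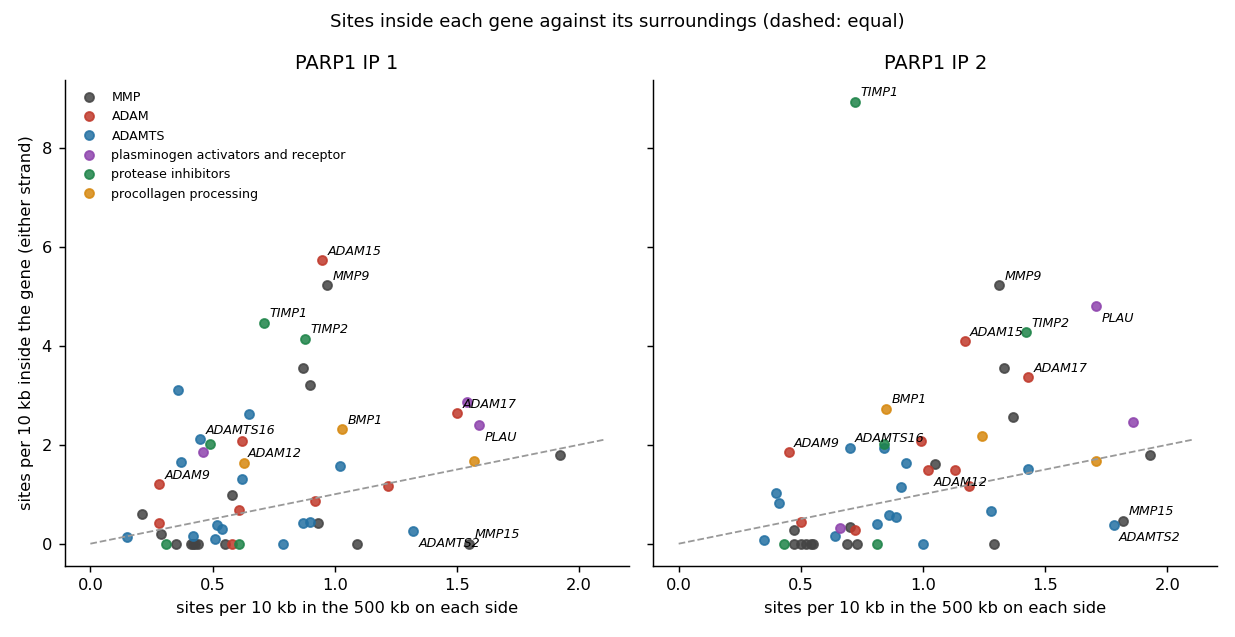
Sites of either strand per 10 kb inside each of the 51 genes (vertical axis) against those in the 500 kb on each side (horizontal axis), for IP 1 (left) and IP 2 (right), coloured by protein class. The dashed line marks equal densities. TIMP2 lies far above it at 4.14 against 0.88 in IP 1, and most MMPs lie below it.

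Between the IPs, sense sites per 10 kb had a Spearman rho of 0.701 across the 51 genes and of 0.689 across all protein-coding genes. Longer genes had more sites, with a rho between span and sites of 0.592 and 0.647 across the 51. Genes are not replicates and share the libraries, so these are descriptions. The median percentile for span over the 51 genes was 46.9 in IP 1 and 48.8 in IP 2, against 45.1 and 45.0 for all protein-coding genes.

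Other genes of the same pathways, 45 in all, were named in both IPs in 16 cases (35.6%), in 1 IP in 11 and in neither in 18, again against 50.8% of protein-coding genes. PAPLN, an ADAMTS-like matrix protein, had 19 and 15 sense sites and 2 shared bases, and RECK, a membrane-anchored MMP inhibitor, had 14 and 5 and 2 shared bases. TLL1, a relative of BMP1, had 17 and 32 and 1 shared base, and the proteoglycanase ADAMTS15 had 4 and 7 and 1 shared base. The 18 without a site were MMP8, MMP12, MMP20, MMP27, ADAM2, ADAM18, ADAM20, ADAM21, ADAM30, ADAM33, ADAMDEC1, ADAMTS13, SERPINB2, SERPINF2, A2M, PLG, ST14 and MEP1B. Named outside the rule, after its values were seen, ADAMTS3, a procollagen N-proteinase, had 46 and 61 sense sites.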

How the data were processed

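Per the labels' protocols, PARP1 and its RNA were pulled from HK-2 lysate with a Flag antibody on beads, and cDNA primed with random hexamers was amplified. The submitters' processing notes name bcl2fastq, TopHat2 and GRCh38. Neither the site caller with its settings nor any removal of duplicates is named in the sources. The deposited values are counts of tags and of mutated tags at each site and, per the file headers, a false discovery rate, a p-value type of measure (at most 0.00909 in IP 1 and 0.00926 in IP 2), which was not used to filter. The lowest count of mutated tags was 2. A site needs a mismatch, and no molecular identifiers are named, so amplified tags may not be independent molecules. Tags over all listed sites sum to 419675 in IP 1 and 572870 in IP 2, a tag counting once for each listed base it covers. The depth of the libraries is unknown.

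The genes were matched by Ensembl identifier through GENCODE release 29 (19922 protein-coding genes, without the copies on Y of genes that X and Y share), and all 51 matched. Region and gene of a site are those in the lists. Genes on the same strand also overlap others of the 51, such as ADAMTS12 (RNU6-923P) and MMP2 (AC007336.3). Coordinates count from 1. A shared site has the same base and strand in both IPs. Percentiles rank a gene's density of sense sites within its bin of 10 span bins of protein-coding genes, and genes with 0 sites share a mid-rank. Intervals are exact, Poisson for densities and Clopper-Pearson for shares, at 95%. Python 3.11.15, pandas 2.3.3 and scipy 1.17.1 were used, and the counting was tested on simulated data. No test between groups was run, since both lists are PARP1 IPs. The genes and lists were chosen with earlier results of these data known. Values are given for the 4 genes of each group with the most sense sites, each gene with a shared site and some genes known in kidney matrix turnover. The others are named to complete their groups. Alternatives were stricter sites, single mutation types, assignment by position, merged sites, exon sites, median densities, looser overlap, leaving out each IP and, added after the data were seen, leaving out the gene with the most sites. For the ADAMTS group a density was also given with ADAMTS12, ADAMTS16 and ADAMTS9 taken out together.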

Additional observations from a re-analysis of the deposited data

How the results depend on the processing

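The MMP group had the lowest mean density ratio to all protein-coding genes in 9 of 11 settings. The exceptions were exon sites over exon length, with MMP at 0.715 and ADAMTS at 0.572, and sites with 3 or more mutated tags, with MMP at 0.510 and ADAMTS at 0.489. With exon sites, ADAM was at 1.75, the inhibitors at 1.54 and procollagen processing at 1.28. The median percentile for span was then 45.8, against 49.2 in the main setting, each the median over genes of a gene's mean over the IPs. With 3 or more mutated tags, ADAM was at 0.709, the inhibitors at 4.34 and procollagen processing at 4.76. The median percentile was 45.3 and the exon share 14.6%, against 8.30% in the main setting. The procollagen group had only 5 such sites in IP 1 and 6 in IP 2. In IP 1, 3 of the 5 were the PCOLCE2 bases 142827536, 142827537 and 142827570, which may rest on the same tags. At that limit 8 genes were named in both IPs and 0 had a shared base, since every shared base had 2 mutated tags in 1 of the IPs. Deletions and insertions alone gave 0.922 for ADAM, 0.425 for ADAMTS, 1.37 for the inhibitors, a median percentile of 42.2, an exon share of 15.9%, 20 genes named in both IPs and 2 with a shared base. Substitutions alone gave 1.36 for ADAM, 0.884 for ADAMTS, 2.97 for the inhibitors and a median percentile of 53.7. Medians over genes in place of sums gave 3.30 for ADAM, 1.15 for ADAMTS, 0.0516 for MMP, 5.91 for the plasminogen group, 4.99 for procollagen processing and 5.99 for the inhibitors. Assignment by position gave 0.676 for ADAMTS and a median percentile of 46.6, and merged sites gave 0.764 and 52.9. Leaving out the gene with the most sites, added after the data were seen, gave 0.960 for ADAM, 0.572 for ADAMTS, 0.264 for MMP and 1.35 for the inhibitors. With each IP left out in turn the median percentile ranged from 46.9 to 48.8. The cause of these shifts was not tested, apart from the shared bases.

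No paired analysis was possible because the inputs, which share replicate numbers with the IPs, were not analysed here. Most sites rest on 2 tags, so single genes with few sites cannot be ranked against each other.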
